A study of Mus musculus with 107 samples.

Results

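The vascular basement membrane genes described here are Nid1, Nid2, Lama4, Lama5, Lamb1, Lamc1, Col4a1, Col4a2 and Hspg2, 9 of the 50686 genes in an expression table of mouse tumors. They were chosen by gene symbol, and Nid2 was picked on its large fall after lenvatinib (LEN), so its values under that comparison are a description and carry no test. The tumors came from 12 mouse cancer cell lines growing under the skin of the right flank of mice of the line's own strain background, which are called syngeneic models. Liver cancer was represented by BNL 1ME A.7R.1 (here BNL) and Hepa 1-6, kidney cancer by Renca and by RAG, which had been adapted in vivo, and lung cancer by KLN205 and LL/2. MC38 and CT26.WT are colorectal lines, EMT6 and 4T1 are lines of the mammary gland, B16-F10 is a melanoma line and MBT2 a bladder line. BNL, RAG, 4T1, CT26.WT, EMT6 and Renca grew in BALB/cAnNCrlCrlj mice, MC38 and B16-F10 in C57BL/6NCrl, LL/2 in C57BL/6JCrl, MBT2 in C3H/HeNCrl, KLN205 in DBA/2NCrl and Hepa 1-6 in C57L/J. The mice were 7 weeks old at implantation, males for BNL and Hepa 1-6 and females for the other models. The groups sequenced for each model were treatment-naive tumors of about 100 mm3, untreated tumors on day 8 (NT), and tumors on day 8 after 7 days of LEN by mouth at 10 mg/kg once daily. LEN is an inhibitor of several receptor tyrosine kinases, mainly the receptors of vascular endothelial growth factor and of fibroblast growth factor. Each group held 3 tumors, except treatment-naive MC38 with 2, which makes 35 treatment-naive, 36 NT and 36 LEN tumors.

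A basement membrane is a thin sheet of extracellular matrix on which endothelial and epithelial cells sit and which also wraps pericytes, muscle and fat cells. Laminin trimers of an alpha, a beta and a gamma chain assemble on the cell surface, collagen IV forms a second network that is crosslinked for strength, and nidogens and the heparan sulfate proteoglycan perlecan tie the networks together. In blood vessels the alpha chains of Lama4 and Lama5 combine with the Lamb1 and Lamc1 chains into laminin-411 and laminin-511, and Col4a1 and Col4a2 encode the chains of the most widespread collagen IV trimer. Tumor cells, fibroblasts and other stromal cells can also make these proteins, and RNA of a whole tumor does not tell the sources apart.

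Col4a1 and Col4a2 lie head to head, and the start regions of this pair are shown because their RNA levels moved together in the tumors described below. In GRCm38 the gene Col4a1 (ENSMUSG00000031502) spans chr8:11198423-11312826 on the minus strand and Col4a2 (ENSMUSG00000031503) spans chr8:11312805-11449287 on the plus strand, so that the genes overlap by 22 bases in opposite directions. The windows below run from 250 bases before to 50 bases after each start, 5′ to 3′ on the gene's own strand, at chr8:11312777-11313076 for Col4a1 and chr8:11312555-11312854 for Col4a2 (RefSeq, GRCm38.p6). Capitals mark the 78 bases that both windows contain, at chr8:11312777-11312854, which read as reverse complements of each other.
Col4a1: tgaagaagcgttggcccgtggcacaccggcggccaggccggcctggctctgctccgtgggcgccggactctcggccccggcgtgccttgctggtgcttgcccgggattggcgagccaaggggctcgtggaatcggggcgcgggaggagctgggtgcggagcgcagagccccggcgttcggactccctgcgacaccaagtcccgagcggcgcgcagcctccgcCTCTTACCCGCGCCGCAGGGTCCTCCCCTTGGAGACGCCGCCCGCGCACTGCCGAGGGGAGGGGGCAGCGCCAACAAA
Col4a2: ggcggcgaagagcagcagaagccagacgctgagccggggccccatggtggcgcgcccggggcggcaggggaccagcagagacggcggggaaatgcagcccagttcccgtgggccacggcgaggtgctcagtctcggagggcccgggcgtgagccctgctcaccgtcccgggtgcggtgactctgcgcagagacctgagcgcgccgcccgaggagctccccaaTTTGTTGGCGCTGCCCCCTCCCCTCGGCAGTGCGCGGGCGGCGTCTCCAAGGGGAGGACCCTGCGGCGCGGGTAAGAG
The G and C content was 74.0% in the Col4a1 window and 73.7% in the Col4a2 window, against a median of 52.7% over 32851 promoter windows of the same length. The letters GGGCGG, read on both strands, occurred 1 time in the Col4a1 window and 3 times in the Col4a2 window, and 35.7% of all windows hold them. The letters CCAAT, read on both strands, occurred 1 time in each window, and 37.4% of all windows hold them. The letters TATAAA, present in 13.6% of all windows, were in neither. Of the other members, Lama5, Hspg2, Lamb1 and Nid1 also matched a RefSeq window, so that 6 of 9 did, with a G and C content from 63.7% for Lamb1 to 72.7% for Lama5; Nid2, Lama4 and Lamc1 had none.

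The remaining members lie on separate chromosomes. Nid1 (ENSMUSG00000005397) spans chr13:13437551-13512269 and Nid2 (ENSMUSG00000021806) spans chr14:19751265-19811787, both on the plus strand. Lama4 (ENSMUSG00000019846) spans chr10:38965515-39110188 on the plus strand, and Lama5 (ENSMUSG00000015647) spans chr2:180176373-180225859 on the minus strand. Lamb1 (ENSMUSG00000002900) spans chr12:31265234-31329644 on the plus strand, Lamc1 (ENSMUSG00000026478) chr1:153218922-153332786 on the minus strand, and Hspg2 (ENSMUSG00000028763) chr4:137468769-137570630 on the plus strand. The annotated gene Nid2 overlaps the protein-coding gene Rtraf on the opposite strand by 437 bases, and Rtraf had a mean of 50.7 TPM over the tumors. Longer overlaps on the opposite strand join Nid1 with Gm48682 (8063 bases), Col4a1 with Gm15418 (6081 bases) and Col4a2 with Gm15419 (18707 bases), all antisense entries. Of these, Gm15418 and Gm15419 had means of 0.448 and 0.187 TPM. Lamc1 overlaps the processed pseudogene Gm8818 on the opposite strand by 1047 bases, and Gm8818 had a mean of 3.80 TPM. Whether the counting used strand is not given in the sources used here, so reads within such overlaps may have been assigned to either gene.

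Expression was deposited as TPM, a transcript abundance scaled per gene length and to the same total in every tumor, which keeps no sequencing depth. Protein-coding genes took between 27.5% and 66.6% of a tumor's TPM, with the lowest share in 1 LEN tumor of 4T1, and leaving out any single tumor kept the count of 7 members lower and 1 higher after LEN. The endothelial markers Cdh5, Pecam1, Kdr, Tie1, Tek, Emcn, Plvap, Esam, Cldn5 and Robo4 all had a median above 0.1 TPM in each group, with a summed TPM of 51.9 to 233 in treatment-naive tumors. Differences were tested with limma on log2(TPM + 1), so a log2 difference understates the change of a gene near 1 TPM, and P values were adjusted over all genes tested. P values measure the spread between the sequenced tumors, which the labels number but do not tie to named animals.

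All 9 genes were expressed in every treatment-naive model, at levels that differed between models. The highest model mean was between 2.84 times (Col4a2) and 52.9 times (Lama5) the lowest. The F test for a difference between models passed for 9 of 9 members, with the largest adjusted p at 2.75e-06 for Col4a1, against 93.6% of all 17542 genes tested, so that the members were like most genes in this. Col4a2 and Lamc1 varied least among models and Lama5 varied most, with SDs between model means of 0.51, 0.52 and 1.73 on the log2 scale. Within a model the SD between tumors averaged 0.12 for Lamc1 and 0.30 for Lama4 on that scale.

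**Figure D1:**
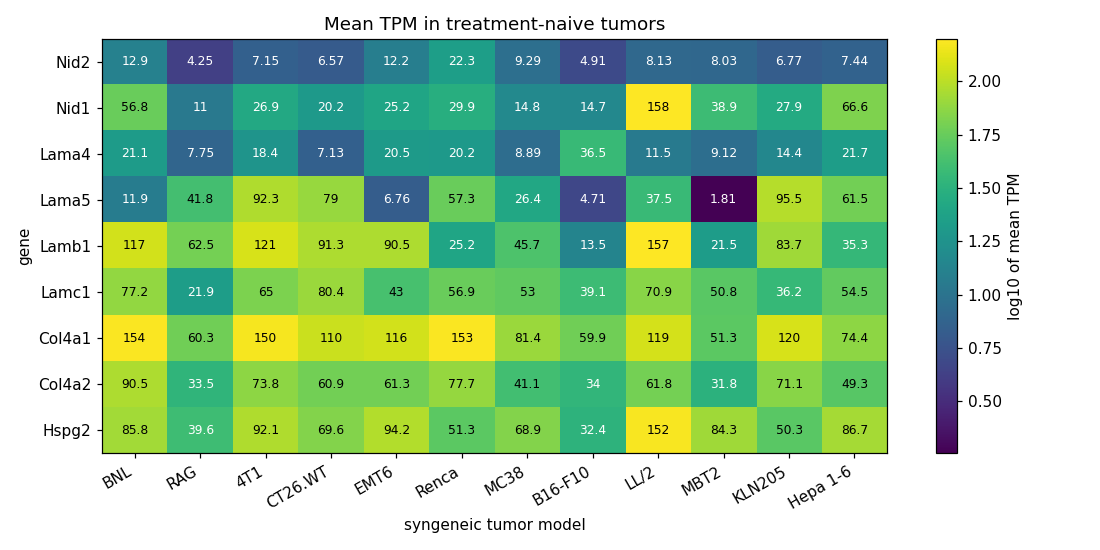
Mean TPM of the 9 genes (rows) in treatment-naive tumors of the 12 models (columns), with 3 tumors per model and 2 for MC38; color shows the log10 of the mean and the printed number is the mean TPM. Lama5 spans the widest range, from 1.81 in MBT2 to 95.5 in KLN205, and Nid2 stays between 4.25 and 22.3.

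The collagen IV genes and Hspg2, which encodes perlecan, were among the more abundant members per length. Col4a1 ranged from 38.1 to 184 TPM over the 35 treatment-naive tumors with a median of 98.7, and Col4a2 from 26.1 to 98.2 TPM with a median of 57.5. BNL, Renca and 4T1 led the order of model means for both genes and MBT2 stood last for both. The order was shallow for Col4a1, since in 10 of 11 pairs of neighboring models the tumor ranges overlapped and only CT26.WT and MC38 were apart. For comparison, 17.5% of all neighboring pairs over all genes were apart. Hspg2 was highest in LL/2, with 144, 152 and 159 TPM, and lowest in B16-F10, with 31.6, 32.2 and 33.5 TPM. The 3 LL/2 tumors were above every tumor of the next model, EMT6, and only 1 other neighboring pair of Hspg2 (MC38 and Renca) was apart.

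The laminin chains followed different orders of models. Lama5, the alpha chain shared by vascular and epithelial basement membranes, was listed at 84.9, 100.4 and 101 TPM in treatment-naive KLN205 and at 0.92, 1.29 and 3.21 TPM in MBT2. Lama4, the alpha chain of endothelial and muscle cells, was instead highest in B16-F10 melanoma, with 35.5, 35.8 and 38.3 TPM, and lowest in CT26.WT, with 6.16, 6.96 and 8.28 TPM. For Lama5, 7 of 11 neighboring pairs of models were apart, and for Lama4 only the step from B16-F10 to Hepa 1-6 was. The ratio of Lama4 to Lama5 TPM therefore ran from 0.0794 to 9.71 over the treatment-naive tumors, and it exceeded 1 in 12 of 35 tumors, all of them from BNL, EMT6, B16-F10 and MBT2. Lamb1, the common beta chain, had 132, 152 and 186 TPM in LL/2 and 12.4, 13.9 and 14.2 TPM in B16-F10. Lamc1, the common gamma chain, was more even, with model means from 21.9 TPM in RAG to 80.4 TPM in CT26.WT.

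Of the nidogens, Nid1 was the more abundant. Nid1 ranged from 10.4 to 181 TPM with a median of 26.8, and Nid2 from 3.46 to 25.6 TPM with a median of 7.28. Nid1 exceeded Nid2 in 35 of 35 treatment-naive tumors, by 1.19 to 21.8 times. Nid1 was highest in LL/2 (138, 155 and 181 TPM), where it stood apart from Hepa 1-6, and lowest in RAG (10.5, 11.1 and 11.3 TPM). Nid2 was highest in Renca (20.1, 21.2 and 25.6 TPM), apart from BNL (12.0, 13.0 and 13.7 TPM), and lowest in RAG (3.46, 4.56 and 4.72 TPM). For Nid2, 8 of 11 neighboring pairs of models overlapped, so the middle of its order is not resolved by these tumors.

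Across the 12 treatment-naive model means, Col4a1 and Col4a2 were nearly interchangeable, with a Pearson r of 0.98. All values of r given here describe 12 model means on the log2 scale that come from the same libraries, and they carry no test. The next pair of members was Nid1 and Hspg2 at 0.77, Nid2 had 0.61 with Col4a1 but 0.28 with Nid1, and Lama4 and Lama5 had -0.21. Against the mean of the 10 endothelial markers, r was 0.86 for Nid2, 0.66 for Col4a2, 0.62 for Col4a1, 0.51 for Lama4 and -0.07 for Lama5. Against the mean of 8 fibroblast markers it was 0.74 for Hspg2, 0.72 for Col4a2, 0.66 for both Col4a1 and Nid1, 0.62 for Nid2 and 0.61 for Lamc1, and against the mean of 6 epithelial markers it was 0.59 for Lama5, 0.56 for Col4a2 and 0.49 for Col4a1. The 5 genes most like Nid2 among 17541 were Adamts9 (r = 0.95), a metalloproteinase gene, Rasip1 (0.92), a gene of endothelial lumen formation, Zfp46 (0.89), and the endothelial markers Cdh5 (0.89) and Robo4 (0.89). The 5 most like Col4a1 were Col4a2 (0.98), the small RNA Rny1 (0.95), the antisense RNA RP23-23P9.4 (0.93), Gm44716 (0.88) and Sox7 (0.88), a transcription factor gene of endothelial cells. Gm44716 is a 710-base entry inside Col4a1 on the same strand, so reads of the 2 features can overlap.

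Col4a1 kept a nearly fixed proportion to Col4a2 in all groups. The ratio of their TPM was between 1.46 and 2.26 in treatment-naive tumors with a median of 1.76, between 1.57 and 2.11 in NT tumors with a median of 1.84, and between 1.36 and 2.39 in LEN tumors with a median of 1.89. Col4a1 was the higher of the 2 in all 107 tumors. The ratio did not pass the test for a difference between treatment-naive models (limma F test, adjusted p = 0.161). After LEN it differed from NT by 0.02 on the log2 scale (SE 0.034, 95% interval -0.05 to 0.09, adjusted p = 0.704), while each gene alone fell.

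**Figure D2:**
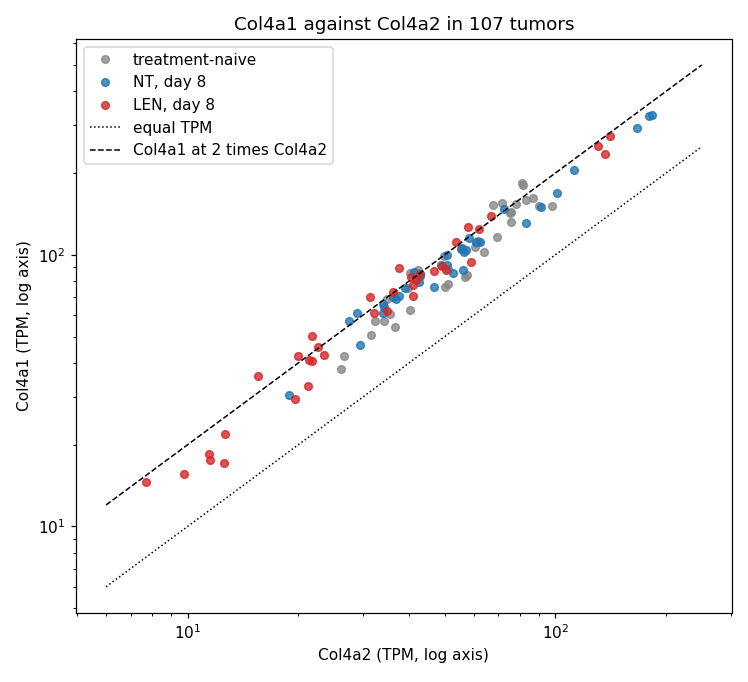
Col4a1 against Col4a2 in TPM, both on log axes, with 1 point per tumor (35 treatment-naive, 36 NT and 36 LEN). All points lie above the dotted line of equal TPM and close to the dashed line of a 2-to-1 proportion, with ratios from 1.36 to 2.39, and the points lowest on both axes are LEN tumors.

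Between the treatment-naive stage and day 8, the basement membrane genes of untreated tumors changed by amounts that differed between models. Averaged over 12 models, 3 of the 8 members other than Nid2 rose and 0 fell, against 17.0% of 17428 genes that rose and 11.5% that fell. Over the same interval 7 of 10 endothelial markers fell (median change -0.20, summed TPM 51.9 to 233 in treatment-naive and 43.9 to 199 in NT tumors), as did 4 of 8 fibroblast markers (median -0.33, summed TPM 270.2 to 4682 and 117 to 9209), and their part in the member changes was not tested. At an unadjusted p under 0.05 the comparison would add Lama4 as lower and Hspg2 as higher. Lamc1 rose by 0.23 on the log2 scale (SE 0.034, adjusted p = 1.14e-06), Lamb1 by 0.15 (SE 0.035, adjusted p = 0.00105) and Lama5 by 0.14 (SE 0.047, adjusted p = 0.0257; limma). Lama4 differed by -0.16 (SE 0.067, adjusted p = 0.0712), Nid1 by -0.11 (SE 0.067, adjusted p = 0.231) and Hspg2 by 0.08 (SE 0.037, adjusted p = 0.102). Nid2, whose choice used the same NT tumors and which is given without a p, differed by 0.04 (SE 0.063), Col4a1 by 0.03 (SE 0.075, adjusted p = 0.797) and Col4a2 by -0.01 (SE 0.063, adjusted p = 0.936). The change differed between models for all 8 members other than Nid2, against 66.5% of all genes, with the largest adjusted p at 0.000579 for Nid1. The call for Lama5 was lost without LL/2 (0.04, adjusted p = 0.576), 4T1 (adjusted p = 0.102), B16-F10 (0.094) or KLN205 (0.111), with a pseudocount of 0.1 (0.12, adjusted p = 0.13) and under either rescaling of TPM, and that for Lamb1 when TPM were rescaled over protein-coding genes (adjusted p = 0.069). Hspg2 passed as higher without Renca (0.17, adjusted p = 0.000269), CT26.WT (0.0462), B16-F10 (0.0447) or Hepa 1-6 (0.0456).

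BNL and Renca moved in opposite directions over the same interval. In single models, taken as contrasts of the fit of 71 tumors, 18 of 96 pairs of a model and a member other than Nid2 were higher on day 8 and 12 were lower, against 8.69% and 5.22% of all pairs. In BNL 7 of these 8 members were higher, beside 22.5% of all genes in that model, and in Renca 6 of 8 were lower, beside 10.3%. Nid2 in BNL went from 12.0, 13.0 and 13.7 TPM to 28.4, 28.5 and 29.9 TPM (log2 difference 1.11, SE 0.22), with no overlap of the groups, and no p is given because the choice of Nid2 used these NT tumors. Lamc1 in BNL went from 70.7, 78.7 and 82.3 TPM to 139.6, 140.2 and 151 TPM (0.89, SE 0.11, adjusted p = 4.03e-08). Hspg2 in Renca went the other way, from 44.8, 45.6 and 63.4 TPM to 23.6, 23.7 and 29.4 TPM (-0.97, SE 0.13, adjusted p = 2.46e-07). The summed fibroblast markers moved alongside, from 4409 to 4682 TPM up to 8128 to 9209 TPM in BNL and from 1571 to 2427 TPM down to 350 to 739 TPM in Renca. The mean share of TPM from protein-coding genes moved too, from 47.3% to 55.7% in BNL and from 49.9% to 45.9% in Renca. The part of these cells and of that share in the member changes was not tested. LL/2 combined both directions, with Lama5 and Lamb1 higher by 1.19 and 0.76 and Nid2 and Lama4 lower by a log2 difference of -0.79 and -0.69 (adjusted p of the laminin genes from 4.03e-07 to 0.0365).

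LEN was compared with NT on day 8 to ask how these genes respond to the inhibitor. Averaged over 12 models, 7 of the 8 members other than Nid2 fell and 1, Lama5, rose. Over all 17351 genes tested, 9.87% fell and 13.7% rose. The 8 members had a median log2 change of -0.42 and all genes one of -0.0019. Lama4, Col4a2, Col4a1 and Nid1 fell by more than 0.5 on the log2 scale, Lamb1, Hspg2 and Lamc1 by less. The members were chosen with such results known, and Nid2, which led to their choice, shares every tumor with them.

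Nid2 was lower after LEN in every model, by a log2 difference of -1.26 on average (SE 0.057), from -0.52 in MC38 to -1.70 in B16-F10. In B16-F10 the NT tumors had 3.87, 4.74 and 5.60 TPM and the LEN tumors 0.66, 0.71 and 0.91 TPM. In BNL the values were 28.4, 28.5 and 29.9 TPM in NT and 9.22, 9.31 and 10.49 TPM in LEN, and in Renca 17.7, 23.0 and 23.95 TPM and 6.16, 7.10 and 7.90 TPM. The smallest difference was in MC38, with 9.22, 9.44 and 10.5 TPM in NT and 6.15, 6.56 and 6.78 TPM in LEN. In 12 of 12 models all 3 LEN tumors were below all 3 NT tumors, where 10.9% of all pairs of a gene and a model show such a separation. As this contrast chose the gene, nothing is read from that count. The mean TPM was 33.2% to 84.0% lower, with a median of 67.5% over models. The LEN tumors of BNL were below the treatment-naive tumors of BNL as well, whose lowest value was 12.0 TPM.

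**Figure D3:**
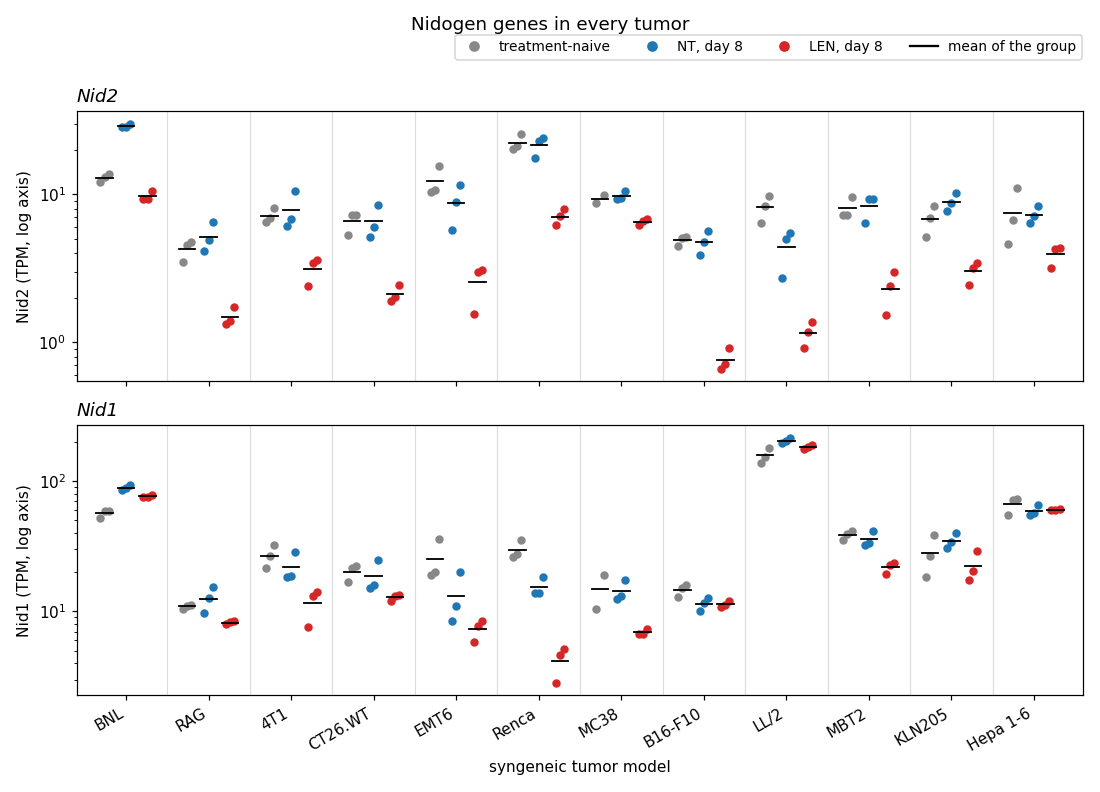
Nid2 (top) and Nid1 (bottom) in TPM on a log axis for every tumor of the 12 models, with treatment-naive tumors in gray, NT in blue and LEN in red and a bar at each group mean. The red points of Nid2 lie below the blue points in all 12 models, while those of Nid1 overlap the blue points in B16-F10 and Hepa 1-6.

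Nid1, the paralog of Nid2, fell by 0.57 on the log2 scale (SE 0.058, adjusted p = 2.72e-11), with a lower mean in 11 of 12 models. In Renca it went from 13.9, 13.9 and 18.5 TPM to 2.83, 4.64 and 5.12 TPM, a change of -1.68 (SE 0.20, adjusted p = 0.0027). In MC38, where Nid2 differed least, Nid1 went from 12.4, 13.1 and 17.5 TPM to 6.66, 6.74 and 7.38 TPM, with no overlap, but the test in that model did not pass (adjusted p = 0.177). B16-F10 was the reverse case, with Nid1 at 10.1, 11.7 and 12.6 TPM in NT and 10.8, 11.2 and 12.0 TPM in LEN, while Nid2 had its largest difference there. The LEN tumors were below all NT tumors for Nid1 in 10 of 12 models, the exceptions being B16-F10 and Hepa 1-6. Over all pairs of a gene and a model, 10.9% are so separated. The mean ratio of Nid1 to Nid2 TPM was higher in LEN than in NT in 10 of 12 models, for example 15.3 against 2.45 in B16-F10, and lower in Renca and MC38. The choice of Nid2 for its fall bears on this ratio, so nothing is read from the count.

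The collagen IV genes fell as a pair. Col4a2 fell by 0.71 (SE 0.057, adjusted p = 1.98e-14) and Col4a1 by 0.69 (SE 0.057, adjusted p = 5.05e-14) on the log2 scale, each in 11 of 12 models. In Renca, Col4a1 went from 56.9, 88.3 and 100.2 TPM in NT to 17.5, 18.5 and 21.8 TPM in LEN (-1.99, SE 0.21, adjusted p = 0.00157). In MBT2 it went from 30.5, 61.2 and 64.3 TPM to 14.6, 15.7 and 17.1 TPM (-1.59, SE 0.27, adjusted p = 0.0804), again with no overlap, although the NT tumors of MBT2 were far apart and the test in that model did not pass. 4T1 was the exception for both genes, with Col4a1 at 106, 116 and 148 TPM in NT and 124, 126 and 139 TPM in LEN. The LEN tumors were below all NT tumors in 9 models for Col4a1 and in 10 for Col4a2, where 10.9% of all pairs of a gene and a model are so separated, and 4T1 and LL/2 were outside both sets.

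Among the laminins the 2 alpha chains parted. Lama4 fell by 0.76 on the log2 scale (SE 0.054, adjusted p = 2.54e-16), the largest fall of the 8 members tested. It went from 10.7, 11.4 and 13.1 TPM to 1.61, 2.69 and 2.77 TPM in Renca (-1.93, SE 0.16, adjusted p = 0.000806) and from 34.5, 34.6 and 40.8 TPM to 14.1, 15.4 and 17.3 TPM in BNL (-1.18, SE 0.10, adjusted p = 0.000347). In B16-F10, the model with the most Lama4, the groups overlapped at 38.9, 41.5 and 44.3 TPM in NT and 36.7, 39.0 and 40.8 TPM in LEN. Hepa 1-6 was the only model with a higher mean after LEN, at 10.7, 10.7 and 18.4 TPM in NT and 15.3, 17.1 and 17.3 TPM in LEN, where the groups overlapped too. The shared chains changed less, as Lamb1 fell by 0.26 (SE 0.033, adjusted p = 1.30e-08) and Lamc1 by 0.095 (SE 0.033, adjusted p = 0.0263). The call for Lamc1 rested on single models, since its adjusted p was 0.122 without EMT6 and 0.0878 without Renca. In Renca, Lamb1 went from 13.2, 14.1 and 16.8 TPM to 4.02, 4.85 and 5.17 TPM (-1.46, SE 0.12, adjusted p = 0.00081), while Lamc1 had 47.7, 54.6 and 58.4 TPM in NT and 44.0, 45.6 and 45.8 TPM in LEN.

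Lama5 rose by 0.21 on average (SE 0.044, adjusted p = 0.000182), and this average rested on 1 model. In BNL it went from 8.02, 8.27 and 11.02 TPM in NT to 42.0, 42.8 and 49.2 TPM in LEN (2.19, SE 0.13, adjusted p = 7.45e-05), and treatment-naive BNL tumors had 10.7, 11.7 and 13.3 TPM. Without BNL the mean change over 11 models was 0.035 (adjusted p = 0.659). In 4 of 11 models all LEN tumors were above all NT tumors, namely BNL, CT26.WT, Renca and KLN205, where 13.5% of all pairs of a gene and a model show this. Lama5 was below a mean of 1 TPM in MBT2 and was not tested there alone. Other genes moved in BNL too, with 26.3% of genes higher after LEN and 5.21% lower. Of the 6 epithelial markers, 4 were above all NT tumors, with Cdh1 at 3.38 to 4.88 TPM in NT and 78.0 to 107.3 TPM in LEN and Krt8 at 7.67 to 17.9 TPM and 444 to 520 TPM, and Krt18 and Krt19 behaved likewise. Epcam was under 1 TPM in both groups and Krt5 was at 0 in all 3 NT tumors. The summed epithelial markers were 18.0 to 46.1 TPM in NT, 1069 to 1255 TPM in LEN and 166 to 209 TPM in treatment-naive BNL tumors, and their part in the rise of Lama5 was not tested.

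**Figure D4:**
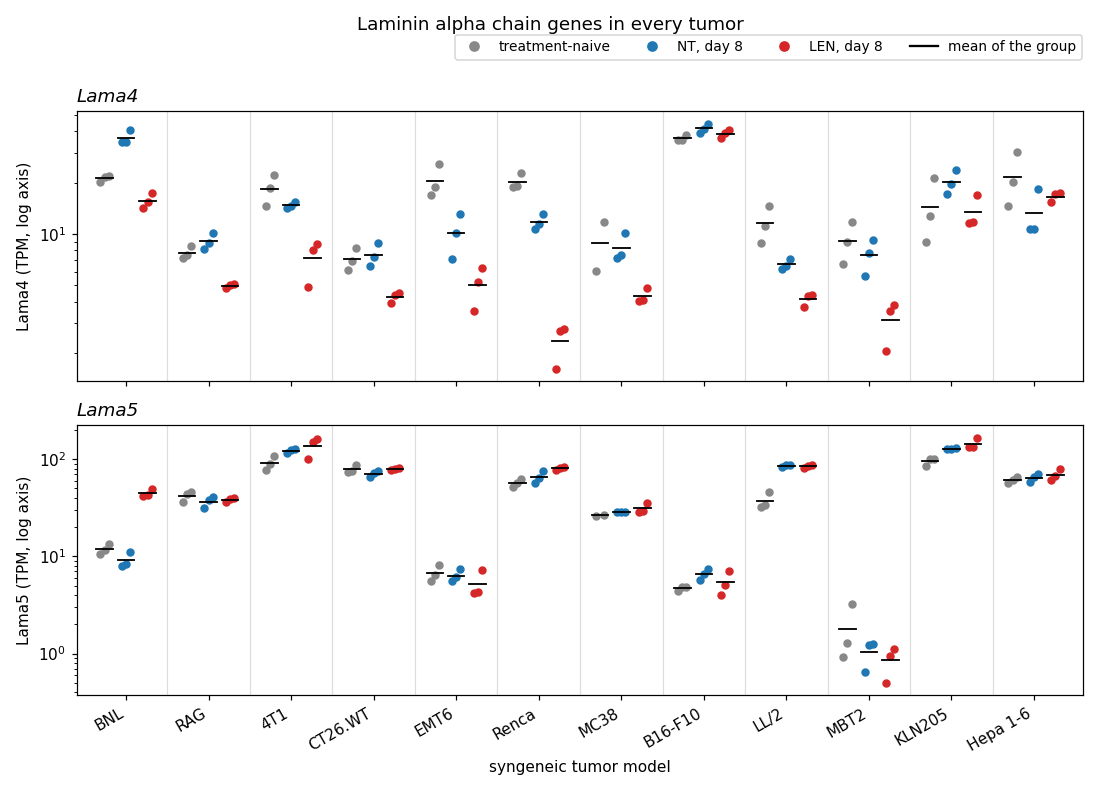
Lama4 (top) and Lama5 (bottom) in TPM on a log axis for every tumor of the 12 models, with treatment-naive tumors in gray, NT in blue and LEN in red and a bar at each group mean. Lama4 is lower in LEN than in NT in most models, and Lama5 stands out in BNL, where LEN tumors have 42.0 to 49.2 TPM and NT tumors 8.02 to 11.02.

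The proportion of the alpha chains shifted toward Lama5. The log2 ratio of Lama4 to Lama5 fell by 0.97 (SE 0.059, 95% interval -1.09 to -0.86, adjusted p = 4.97e-19), with lower values in 10 of 12 models, the exceptions being B16-F10 and Hepa 1-6. Without BNL the fall was still 0.76 on the log2 scale. In BNL the mean ratio of TPM went from 4.13 in NT to 0.349 in LEN, and in Renca from 0.182 to 0.0288, where Lama5 was 56.4, 63.8 and 75.8 TPM in NT and 78.3, 81.9 and 83.9 TPM in LEN. The mean ratio exceeded 1 in 4 models in NT and in 2, B16-F10 and MBT2, in LEN.

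Hspg2, the perlecan gene, fell by 0.24 on the log2 scale (SE 0.039, adjusted p = 2.98e-06), with a lower mean in 10 of 12 models. Its change was largest in Renca, from 23.6, 23.7 and 29.4 TPM to 8.39, 11.5 and 14.4 TPM (-1.12, SE 0.19, adjusted p = 0.0106). In B16-F10 it was higher, at 24.6, 30.2 and 32.8 TPM in NT and 34.5, 43.9 and 45.7 TPM in LEN with no overlap, and the difference of 0.49 (SE 0.14) had an adjusted p of 0.0789 in that model. The fibroblast markers were also higher in LEN tumors of B16-F10, with a summed TPM of 461 to 602 against 117 to 147 in NT, and their part was not tested.

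The size of the LEN change differed between models for 7 of the 8 members, Lamc1 being the exception (F test, adjusted p = 0.448), against 35.3% of all genes. Within single models, where 3 LEN were compared with 3 NT tumors, 14 pairs of a member and a model were lower and 1 was higher, against 1.30% and 3.56% of all pairs. The lower calls were 6 in BNL, 6 in Renca, and Col4a2 alone in B16-F10 and in KLN205, and the higher call was Lama5 in BNL. Over all genes tested in the model, 5.21% were lower in BNL, 7.15% in Renca, 2.42% in B16-F10 and 0.150% in KLN205. In the models without a lower member call few genes of any kind were lower, from 1 in RAG, 4T1 and CT26.WT to 15 in EMT6. A missing member call in these models therefore shows little about the members. In BNL and Renca the same 6 members passed, namely Nid1, Lama4, Lamb1, Col4a1, Col4a2 and Hspg2. When the models were taken as contrasts of the fit of all 72 tumors, 28 pairs were lower and 2 higher. The share of all pairs called in that fit is not given, so nothing is read from these counts.

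**Figure D5:**
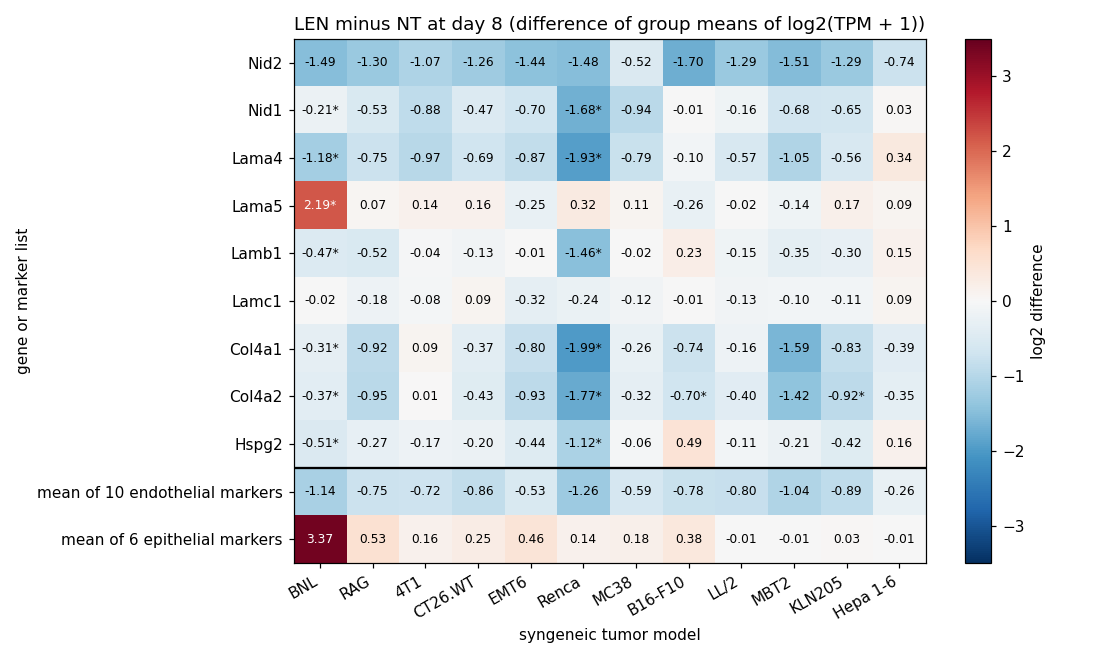
Difference of LEN minus NT in mean log2(TPM + 1) for the 9 genes (rows) in the 12 models (columns), with the mean change of 10 endothelial and 6 epithelial markers below the line; an asterisk marks an adjusted p under 0.05 in that model (limma), and neither Nid2 nor Lama5 in MBT2 was tested. Nid2 is negative in all 12 columns, Renca has the lowest value of 6 of the other members, and Lama5 in BNL (2.19) stands beside an epithelial mean of 3.37.

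The marker genes of blood vessels also fell after LEN. Of the 10 endothelial markers 9 were tested and 9 fell, by a median of 0.84 on the log2 scale, and Tek was below the minimum of 1 TPM. Their summed TPM ranged from 43.9 to 199 in NT and from 21.5 to 104 in LEN. Of 9 mural cell markers, which mark pericytes and smooth muscle cells, 7 fell and 1, Des, rose, and the median change was -0.37. BNL was the only model with a positive mean change of the mural markers (0.29). Their summed TPM there was 266 to 295 in NT and 401.4 to 406.5 in LEN. The LEN change was lower than the mean endothelial change in 6 of 12 models for Lama4 and for Col4a2, and in 5 for Col4a1. The same held in 4 models for Nid1, in 1 for Lamb1 and in none for Hspg2, Lamc1 and Lama5. That mean covers all 10 markers, Tek included. Hepa 1-6 had the smallest mean endothelial change (-0.26) and 2 of 8 members with a lower value after LEN, both collagen IV genes. Its fibroblast markers differed by 0.85 on average, the largest such rise after that of B16-F10 (1.76). Renca had the lowest mean change of the fibroblast markers (-0.47) and of the mural markers (-0.90) among the 12 models. EMT6 (-0.53) had 8 of 8 lower and MC38 (-0.59) had 7 of 8, as many as Renca with the largest endothelial change (-1.26). The sizes differed, with a median change of the members of -0.57 in EMT6, -0.19 in MC38 and -1.57 in Renca. Over the 12 models, r between the LEN change and the mean endothelial change was 0.77 for Lama4, 0.75 for Lamb1 and 0.62 for Hspg2. It was 0.53 for Col4a1 and Col4a2, 0.44 for Nid1, 0.19 for Lamc1 and -0.44 for Lama5, and these values carry no test. Fewer vascular cells and less RNA per cell cannot be told apart in RNA of whole tumors, and the part of either in the member changes was not tested.

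Other basement membrane genes moved both ways after LEN. Of 42 such genes in 5 lists, 37 were tested, 5 fell and 13 rose, against 9.87% and 13.7% of all genes, with a median change of 0.03. Without BNL 6 fell and 9 rose, and the share of all genes in that fit is not given. Among 12 core and associated proteins 3 fell and 3 rose. Egfl7, a matrix protein secreted by endothelial cells, fell by 0.69 (SE 0.065, adjusted p = 2.87e-12) in 12 of 12 models. Col15a1, a collagen of vascular basement membranes, fell by 0.47 (SE 0.072, adjusted p = 1.26e-06), and Fbln2, a fibulin of the matrix, rose by 0.35 (SE 0.060, adjusted p = 8.51e-06). Among the other laminin chains Lamb3, a beta chain of epithelial basement membranes, rose by 0.49 (SE 0.075, adjusted p = 8.11e-07), and Lama2, the alpha chain of muscle and nerve, differed by -0.18 (adjusted p = 0.188). Without BNL the rise of Lamb3 did not pass (0.20, adjusted p = 0.0797), and in BNL Lamb3 went from 0.54 to 0.83 TPM up to 19.97 to 25.9 TPM. Col4a5 was the only one of 4 other collagen IV chains with enough expression to test, and it differed by 0.04 (adjusted p = 0.536), or by 0.12 without BNL (adjusted p = 0.0281).

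Among the receptors and the collagen-processing enzymes some genes rose and some fell, where 13.7% of all genes rose and 9.87% fell. Of 9 receptors 4 rose and 1 fell, and without BNL, where the share of all genes is not given, 2 rose and 2 fell. Itgb4, the integrin beta chain of epithelial hemidesmosomes, rose by 0.52 (SE 0.067, adjusted p = 2.03e-08), and by 0.36 without BNL. Bcam, a receptor for the Lama5 chain, rose by 0.25 (adjusted p = 0.00702), but differed by -0.06 without BNL (adjusted p = 0.644). Itga1, a chain of a collagen-binding integrin, fell by 0.22 (adjusted p = 0.000133). Of 10 genes for the folding, secretion and crosslinking of collagen IV 4 rose and 1 fell. P4ha2 rose by 0.49 (SE 0.061, adjusted p = 8.56e-09) in 12 of 12 models, P4ha1 by 0.37 (SE 0.038, adjusted p = 3.31e-11) and P4hb by 0.19 (adjusted p = 1.81e-08). Each of these genes encodes a subunit of collagen prolyl 4-hydroxylases. Pxdn, the peroxidasin that crosslinks collagen IV, fell by 0.20 (adjusted p = 0.00786). In the same tumors the collagen IV chains Col4a1 and Col4a2 were lower, as given above.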

How the data were processed

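The authors made rRNA-depleted RNA-seq libraries from whole tumors and read them on NovaSeq and NextSeq platforms. According to the submitters' processing notes and the methods, reads were trimmed with Trimmomatic 0.36, mapped to the mouse genome (mm10, GRCm38) with STAR 2.5.2b and quantified with RSEM 1.2.31. The authors deposited TPM for 50686 genes in 107 tumors. TPM keeps no depth, so the depth and counting precision per tumor are unknown.

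Groups and replicate numbers follow the sample labels. Genes with a mean of at least 1 TPM in the fitted tumors were analyzed as log2(TPM + 1) with limma 3.58.1 in R 4.3.3 (lmFit, eBayes with a mean-variance trend), with Benjamini-Hochberg adjustment over all genes and a threshold of 0.05. Ratios of genes were added as rows. Fits covered the 72 day 8 tumors, the 71 untreated tumors, the 35 treatment-naive tumors, and each model alone. The code was tested on simulated data.

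The members and gene lists were chosen with earlier results of these data known. Named besides the 9 members are genes of the other lists with an adjusted p under 0.05 and a log2 change of at least 0.5, in addition up to 3 genes per list with the largest change whatever its size or p, and the 5 genes most like Nid2 and Col4a1. P4hb was added after its values were seen. A result that the rule would name is not reported here. Results were recomputed with 0.1 as pseudocount, with a minimum of 5 TPM or none, after upper-quartile or protein-coding rescaling, without the trend, with a replicate block, and without each tumor or model in turn. Gene positions come from GENCODE and promoter windows from RefSeq. Figures used Python 3.11.15 and matplotlib 3.10.9.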

Additional observations from a re-analysis of the deposited data

Results flagged for a closer look

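For 7 of the 8 members tested the LEN change differed between the 12 models (limma F test, adjusted over all genes). The adjusted p was 1.03e-11 for Lama5, 8.94e-11 for Lamb1, 2.62e-07 for Col4a1, 4.91e-07 for Lama4, 8.76e-07 for Hspg2, 1.86e-05 for Col4a2 and 0.000105 for Nid1. Lama5 ranged from -0.26 in B16-F10 to 2.19 in BNL on the log2 scale, Lamb1 from -1.46 in Renca to 0.23 in B16-F10, and Hspg2 from -1.12 in Renca to 0.49 in B16-F10. Col4a1 ranged from -1.99 in Renca to 0.09 in 4T1, Col4a2 from -1.77 to 0.01 in the same models, Lama4 from -1.93 in Renca to 0.34 in Hepa 1-6 and Nid1 from -1.68 in Renca to 0.03 in Hepa 1-6.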

How the results depend on the processing

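Of 607 values recomputed under the alternatives, 553 kept their direction and side of the threshold or, for counts, stayed within 1.5 times the reported count. The 7 falls after LEN numbered 6 or 7 under all of them. Within single models, 28 pairs were lower (14 as reported) and 2 higher as contrasts of the fit of 72 tumors, and 2 were higher with upper-quartile or protein-coding rescaling. The share of all pairs is given for the reported fits alone, so no changed count of pairs is read as a result about the members. Leaving out single tumors gave 12 to 16 lower and 1 to 2 higher pairs, the second without replicate 2 of the Renca NT tumors. Without BNL 0 members rose after LEN. On day 8, 1 member, Lama4, was lower with upper-quartile or protein-coding rescaling and without BNL, RAG, B16-F10 or KLN205, and leaving out single tumors gave 0 to 1, with 6 tumors giving 1; 1 member was higher with protein-coding rescaling. Day 8 differences near 0 changed sign: Nid2 to -0.0040, -0.015 and -0.054 and Col4a1 to -0.022, -0.033 and -0.059 with upper-quartile rescaling, protein-coding rescaling and without BNL; Col4a1 to -0.0088, -0.018 and -0.016 without RAG, KLN205 or Hepa 1-6; and Col4a2 to 0.013, 0.0066, 0.048, 0.067, 0.0077 and 0.0053 without 4T1, CT26.WT, EMT6, Renca, LL/2 or MBT2, and to between -0.035 and 0.017 without single tumors. The cause was not tested. With treatment-naive MC38 reduced to 1 tumor, that tumor was assumed to vary like the other groups. With the replicate number as a block the 7 falls and 1 rise remained in number, and 17 pairs within models were lower. The consensus correlation was 0.081 after LEN and -0.021 on day 8, and an own block was possible in 8 of 12 models. Of 20 same-numbered LEN and NT pairs 0 had a correlation over 0.1 (median 0.014), and of 88 differently numbered pairs 3 did (median 0.0040). So few pairs cannot settle what the numbers stand for, and the reported fits used them only as names of tumors. Depth limits could not be assessed from TPM.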
